A study of Mus musculus with 15 samples.

Results

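The genes described here are 30 genes of cholesterol and fatty acid synthesis, chosen by name out of the 53465 genes of the deposited count table. They are 6 enzymes of the mevalonate pathway, 10 enzymes that build sterols from farnesyl diphosphate, 4 regulators of the sterol regulatory element-binding protein (SREBP) system, 3 enzymes that supply acetyl-CoA or NADPH, 6 enzymes of fatty acid synthesis and modification, and 1 sterol carrier. RNA was sequenced from mouse tumours of LLC1, the Lewis lung carcinoma line. The tumours were either LLC1-sgLkb1, whose genotype is labelled LKB1 knockdown (KD below), or LLC1 labelled wild type (WT). KD tumours had an immune checkpoint inhibitor (KD ICI), radiation with the inhibitor (KD RI) or radiation alone (KD RT), and WT tumours had the inhibitor (WT ICI) or radiation with it (WT RI), with 3 libraries in each group. All the groups with counts carry the inhibitor, there is no untreated group, and WT with radiation alone was not analysed here. The sources used here name neither the inhibitor nor the dose, and do not say whether the sgLkb1 line is 1 clone. Nor do they say which libraries are separate animals, so the p-values measure the spread between libraries only.

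Cholesterol is made from acetyl-CoA through mevalonate, farnesyl diphosphate, squalene and lanosterol, and fatty acids are made from acetyl-CoA by acetyl-CoA carboxylase and fatty acid synthase. When sterol in the endoplasmic reticulum is low, the escort protein Scap carries SREBP precursors to the Golgi, where they are cut to release transcription factors that act on most genes of both routes, while Insig1 holds Scap back when sterol is plentiful. LKB1, the product of Stk11, is the main activating kinase of AMPK, which phosphorylates and inhibits acetyl-CoA carboxylase and acts on sterol synthesis and SREBP as well.

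Of the 30 genes, 24 matched the RefSeq promoter table (GRCm38.p6), which gave 31 windows of 300 bases from 250 before to 50 after a gene start. The windows of 4 of these genes are printed 5′ to 3′ on the gene's strand. Hsd17b7 (chr1:169969156-169969455, minus strand) is shown because it differed most between the genotypes among the 30, Cyp51 (chr5:4104648-4104947, minus strand) and Idi1 (chr13:8885356-8885655, plus strand) because they differed most between KD libraries of different naming, and Hmgcs1 (chr13:119690101-119690400, plus strand) as a classical SREBP target. Capitals mark 3 motifs searched on both strands, with no overlap among them in these windows: TCACNCCAC (a sterol regulatory element), CCAAT (the NF-Y box, ATTGG on the other strand) and GGGCGG (the Sp1 box, CCGCCC on the other strand).
Hsd17b7: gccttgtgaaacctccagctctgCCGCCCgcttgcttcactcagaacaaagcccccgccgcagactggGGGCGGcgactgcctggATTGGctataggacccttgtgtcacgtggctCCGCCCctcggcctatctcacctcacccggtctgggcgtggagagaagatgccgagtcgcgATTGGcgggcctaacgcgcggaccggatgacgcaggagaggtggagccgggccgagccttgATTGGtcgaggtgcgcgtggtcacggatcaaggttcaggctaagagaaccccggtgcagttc
Cyp51: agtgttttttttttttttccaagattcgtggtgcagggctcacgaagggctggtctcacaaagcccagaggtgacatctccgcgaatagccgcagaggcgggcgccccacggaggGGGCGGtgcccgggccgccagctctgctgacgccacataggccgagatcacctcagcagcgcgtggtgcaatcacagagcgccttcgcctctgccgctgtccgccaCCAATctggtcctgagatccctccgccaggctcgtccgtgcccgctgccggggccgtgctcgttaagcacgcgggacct
Idi1: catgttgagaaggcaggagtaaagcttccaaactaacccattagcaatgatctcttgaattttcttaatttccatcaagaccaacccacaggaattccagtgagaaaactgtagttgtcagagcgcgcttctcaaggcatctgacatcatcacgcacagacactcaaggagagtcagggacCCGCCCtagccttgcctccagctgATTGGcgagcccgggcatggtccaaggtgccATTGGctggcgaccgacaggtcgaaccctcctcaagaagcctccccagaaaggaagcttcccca
Hmgcs1: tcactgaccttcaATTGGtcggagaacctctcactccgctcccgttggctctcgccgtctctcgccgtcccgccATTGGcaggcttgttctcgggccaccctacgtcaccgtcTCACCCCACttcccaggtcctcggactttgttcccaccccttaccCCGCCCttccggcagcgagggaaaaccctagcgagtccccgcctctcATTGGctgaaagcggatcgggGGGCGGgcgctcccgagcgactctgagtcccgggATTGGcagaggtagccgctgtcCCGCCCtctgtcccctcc
TCACNCCAC was found in 1 of the 31 windows, that of Hmgcs1 at position -137 from the start (3.23%), against 1.24% of all 32851 windows. CCAAT was in 22 windows (71.0%) against 37.4% of all windows, and GGGCGG in 22 (71.0%) against 35.7%. These are letter matches within 300 bases and not measured binding sites.

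The 12 libraries with counts held 17289313 to 23471917 counts. All 30 genes passed the filter on low counts, with 44 (Fdps in KD ICI 1) to 16386 counts (Scd2 in WT ICI 3) in a library, and 16617 genes were tested with edgeR's quasi-likelihood test and Benjamini-Hochberg adjustment. Levels below are CPM, the count scaled to the library total, on the TMM scale, and a call means an adjusted p under 0.05. Krt8, a keratin of simple epithelia, averaged 579 CPM in KD ICI, 533 CPM in WT ICI, 578 CPM in KD RI and 521 CPM in WT RI. The lung and epithelial genes Nkx2-1, Sftpc, Epcam and Cdh1 averaged at most 1.04 CPM in any group, so the labelled carcinoma was not marked by them. With Krt8 and Krt18 these make a list of 6 genes, of which 3 were tested. Of these, 2 were called lower in KD under each treatment, where 14.9% (ICI) and 12.1% (RI) of all genes were. Their log2 fold changes ran from -2.68 to 0.12 under ICI and from -2.51 to 0.15 under RI. In whole tumours, fewer cells of a type and less RNA per cell cannot be told apart.

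The targeted gene Stk11 was only slightly lower in KD. It had 115, 128 and 152 CPM in KD ICI libraries 1 to 3, against 168, 152 and 171 CPM in WT ICI. In KD RI it had 139, 111 and 127 CPM, against 140, 140 and 147 CPM in WT RI. The groups did not overlap under either treatment, though their nearest libraries were almost level, and the log2 fold change came to -0.31 ± 0.11 (SE) under ICI (edgeR adjusted p = 0.0556), -0.18 ± 0.12 under RI (adjusted p = 0.304) and -0.25 ± 0.08 on average (adjusted p = 0.0283). The average passed in 6 of the 12 fits that each left out 1 library. The counts cover the whole gene, so an edit that leaves transcript in place would not be seen in them.

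Library names divide the KD samples, and many of the values below differ with them. In the descriptions KD ICI 3, KD RI 1 and KD RI 3 are named SG793, KD ICI 1 and KD RI 2 are named JIAN, and KD ICI 2 is named TUI; KD ICI 1 and 2 share the start H80. WT ICI 2 and all WT RI libraries are named JIAN and WT ICI 1 and 3 TUI, so no WT library is named SG793. KD ICI 3 carries CON in its description, at odds with its ICI label. The sources used here do not say what these names stand for.

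**Figure D1:**
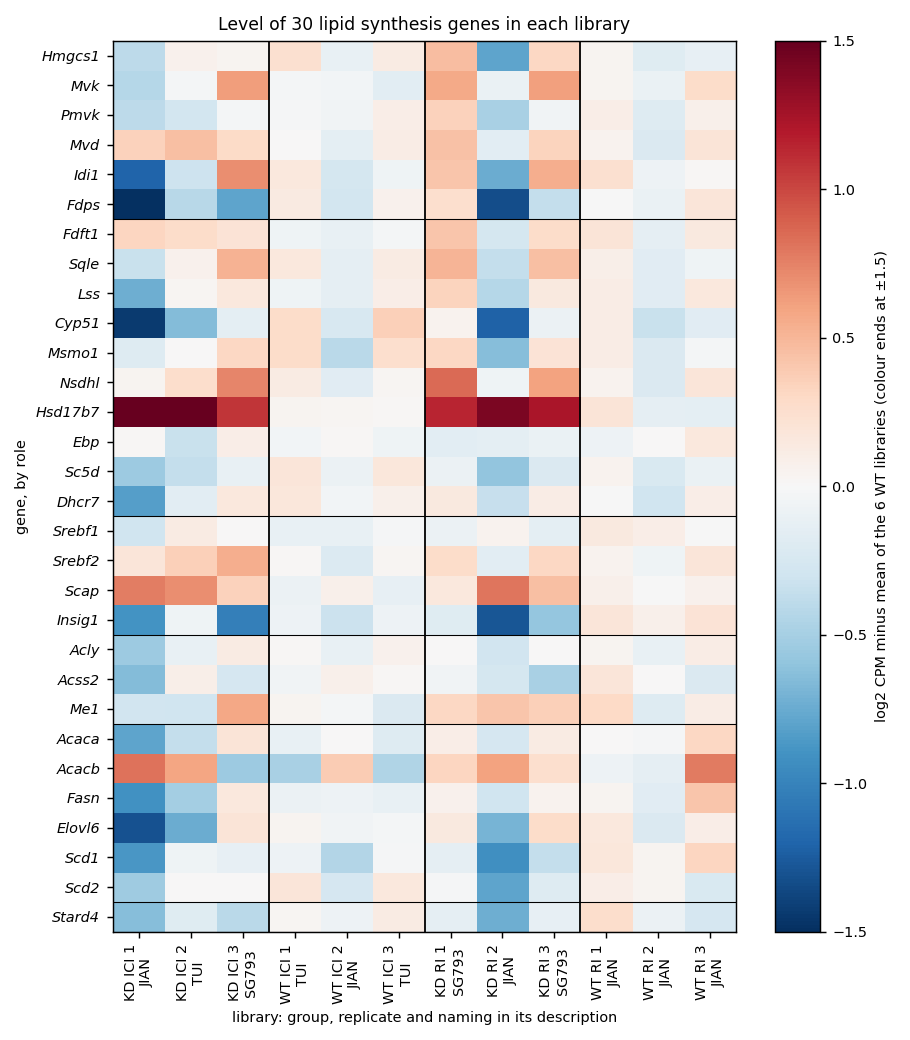
Level of each of the 30 genes (down the page, by role) in each of the 12 libraries with counts (across, with group, replicate and naming). Colour is log2 CPM minus the mean of the 6 WT libraries, red above and blue below, and ends at ±1.5; Hsd17b7 is red in every KD library, while most other genes are blue in the KD libraries named JIAN and pale or red in those named SG793.

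Between the genotypes the synthesis genes did not move as a block in the fit to all 12 libraries, whose KD groups mix namings. There 11 of the 30 log2 fold changes were positive under ICI and 15 under RI. The picture changed with the KD libraries used, as given below. Under ICI, Hsd17b7, Scap and Srebf2 were called higher in KD and Sc5d lower, so that 3 genes rose and 1 fell of 30, where 16.1% of all tested genes were called higher and 14.9% lower. The median log2 fold change of the 30 genes was -0.12, against 0.00 for all genes tested. Under RI Hsd17b7 alone was called, which is 1 higher and 0 lower, where 9.18% and 12.1% of all genes were called. In that comparison 5 of the 30 genes had an unadjusted edgeR p under 0.05, as did 5573 of all 16617 genes. DESeq2's Wald test called 2 higher and 2 lower (10.9% and 14.3% of all genes). Averaged over both treatments 4 were higher and 3 lower, against 20.2% and 20.5% of all genes.

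Hsd17b7, a reductase that acts in removal of the methyl groups of lanosterol, was the clearest difference. It had 70.0, 67.6 and 50.3 CPM in KD ICI, against 24.5, 24.3 and 24.1 CPM in WT ICI. It had 52.5, 63.4 and 55.6 CPM in KD RI, against 27.2, 21.8 and 21.6 CPM in WT RI. Every KD library was above every WT library, by nearly the same margin under both treatments. The means were 62.6 ± 10.8 CPM in KD ICI and 24.3 ± 0.207 CPM in WT ICI (SD, n = 3 each), a fold of 2.57 (log2 1.36 ± 0.14 SE, edgeR adjusted p = 6.77e-05). Under RI they were 57.2 ± 5.62 CPM in KD and 23.5 ± 3.19 CPM in WT, a fold of 2.43 (log2 1.28 ± 0.14, adjusted p = 5.69e-05). The call stood in 22 of 22 alternative fits under ICI and 22 of 22 under RI. The gene lies at chr1:169949535-169969241 on GRCm38, as the deposited table gives it.

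The other enzymes of the sterol branch split in direction. Sc5d, the desaturase of a late step just before the last reductase, Dhcr7, acts, had 43.6, 49.3 and 58.6 CPM in KD ICI, against 71.8, 59.8 and 71.4 CPM in WT ICI. It had 59.8, 42.1 and 54.7 CPM in KD RI, against 65.8, 54.2 and 59.2 CPM in WT RI. KD ICI lay wholly below WT ICI, and the RI groups overlapped. Under ICI the log2 fold change came to -0.42 ± 0.15 (adjusted p = 0.0470), and on average to -0.31 ± 0.10 (adjusted p = 0.0325). The call under ICI was kept in 10 of 22 alternatives, and of the 12 single libraries it was lost without any 1 of the KD libraries ICI 1, ICI 2 and RI 3 or the WT libraries ICI 1, ICI 3, RI 2 and RI 3 (adjusted p up to 0.164).

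Nsdhl, the sterol dehydrogenase that works just before Hsd17b7, had 27.2, 31.6 and 43.9 CPM in KD ICI, against 28.9, 23.5 and 26.9 CPM in WT ICI. It had 47.8, 25.2 and 40.0 CPM in KD RI, against 27.4, 22.7 and 30.03 CPM in WT RI. The libraries named SG793 were highest and the groups overlapped under both treatments. It was called on average (log2 0.44 ± 0.16, adjusted p = 0.0448), but of the 12 fits leaving out 1 library it stayed called only without KD ICI 1 or KD RI 2, with adjusted p up to 0.140 in the others.

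Cyp51, which demethylates lanosterol, had 40.4, 69.6 and 98.6 CPM in KD ICI, against 132, 92.8 and 140 CPM in WT ICI. It had 113, 47.3 and 103 CPM in KD RI, against 118, 86.8 and 97.1 CPM in WT RI. The range inside each KD group was wider than the gap between the group means, and the log2 difference of -0.80 ± 0.35 under ICI had an adjusted p of 0.102. Fdft1, squalene synthase, was, besides Hsd17b7 and Sc5d, the only member of the sterol branch with groups apart under ICI, with 59.2, 57.1 and 54.7 CPM in KD ICI, against 45.1, 44.0 and 46.3 CPM in WT ICI (adjusted p = 0.106). It shares 774 bases with Ctsb on the opposite strand, and Ctsb had 294644 counts, so with the strand setting not given its reads are uncertain. The remaining 5 enzymes of this branch, squalene epoxidase (Sqle), lanosterol synthase (Lss), the methylsterol oxidase Msmo1, the sterol isomerase Ebp and Dhcr7, the reductase of the last step, were called in no genotype comparison; of these Ebp had groups apart under RI, at 18.7 to 19.5 CPM in KD RI and 19.9 to 23.3 CPM in WT RI. Their group means ran from 19.1 CPM (Ebp in KD RI) to 113 CPM (Sqle in KD RI).

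Among regulators, Scap had 186, 177 and 138 CPM in KD ICI, against 103, 115 and 100 CPM in WT ICI. It had 122, 191 and 149 CPM in KD RI, against 115, 109 and 114 CPM in WT RI. Every KD library was above every WT library of its treatment. Under ICI the log2 fold change came to 0.66 ± 0.15 (adjusted p = 0.00683), under RI to 0.45 ± 0.15 (adjusted p = 0.0520) and on average to 0.55 ± 0.11 (adjusted p = 0.00137). The calls under ICI and on average stood in 22 of 22 and 21 of 21 alternatives, and under RI the gene passed in 8 of 22, among single libraries without KD ICI 1, KD ICI 3 or KD RI 1.

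Srebf2, the SREBP that acts mainly on sterol genes, had 316, 359 and 407 CPM in KD ICI, against 282, 242 and 285 CPM in WT ICI. It had 337, 251 and 348 CPM in KD RI, against 290, 268 and 316 CPM in WT RI. The groups were apart under ICI and overlapped under RI. Under ICI the log2 fold change came to 0.42 ± 0.14 (adjusted p = 0.0400), and under RI to 0.10 ± 0.14. The call under ICI stood in 11 of 22 alternatives, and of the 12 fits leaving out 1 library it was kept only without KD ICI 1, KD RI 1, KD RI 2 or KD RI 3, with adjusted p up to 0.210 in the others.

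Insig1, which retains Scap in the endoplasmic reticulum and is itself an SREBP target, went the other way. It had 59.7, 107 and 54.9 CPM in KD ICI, against 106, 89.4 and 106 CPM in WT ICI. It had 98.3, 45.8 and 74.5 CPM in KD RI, against 126, 117 and 129 CPM in WT RI. KD ICI 2 reached the WT ICI level, whereas all KD RI libraries lay below all WT RI libraries. On average it was lower in KD (log2 -0.61 ± 0.19, adjusted p = 0.0256), a call that was lost without KD ICI 1 (adjusted p = 0.0678) or KD ICI 3 (0.0736); under RI it was -0.77 ± 0.27 with an adjusted p of 0.0674. Srebf1, the SREBP that acts mainly on fatty acid genes, had group means of 118 to 130 CPM across KD RI and WT RI and 119 and 116 CPM in KD ICI and WT ICI, and was called in no comparison.

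**Figure D2:**
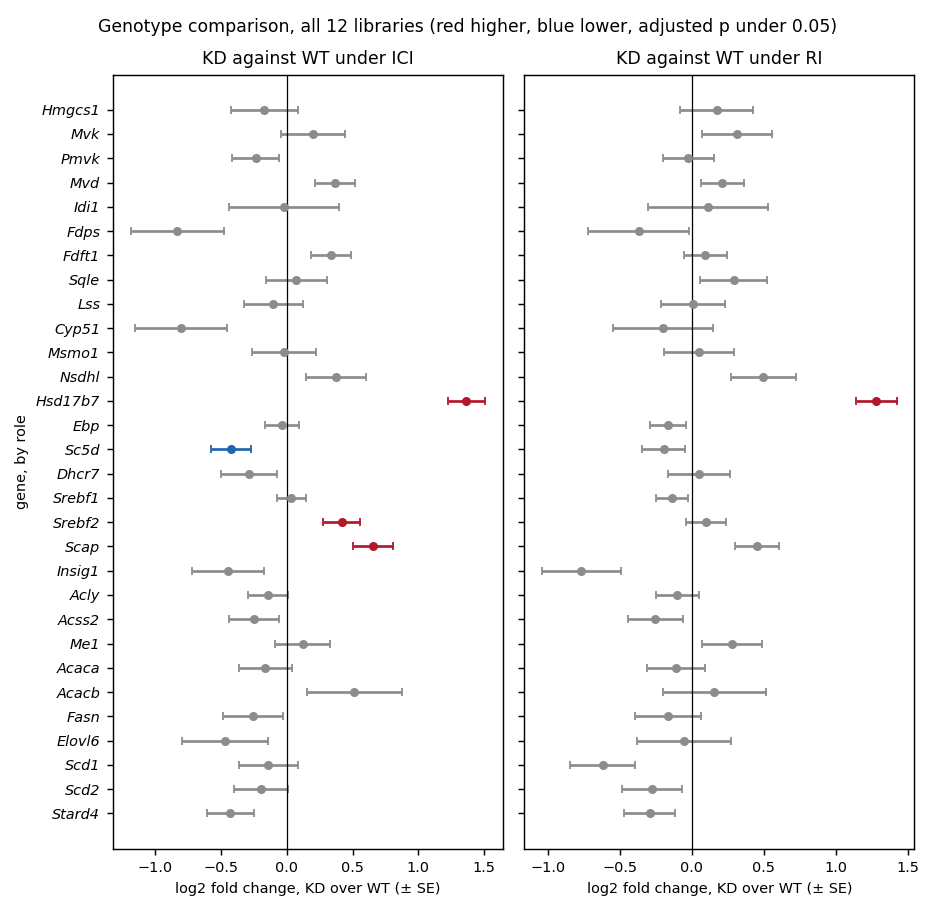
Log2 fold change of KD over WT with its SE for the 30 genes under ICI (left) and RI (right), from the fit to all 12 libraries. Genes called higher are red and lower blue: Hsd17b7, Scap, Srebf2 and Sc5d under ICI and Hsd17b7 alone under RI, with the rest grey and spread on both sides of 0.

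In the mevalonate pathway only Mvd, the decarboxylase that yields isopentenyl diphosphate, was called, and only on average (log2 0.29 ± 0.11, adjusted p = 0.0465). It had 63.2, 67.8 and 60.8 CPM in KD ICI, against 50.1, 45.1 and 53.7 CPM in WT ICI. In KD RI it had 67.4, 44.7 and 62.9 CPM, against 51.8, 42.7 and 56.7 CPM in WT RI. The groups were apart under ICI and overlapped under RI, and of the 12 single libraries the call was kept only without KD ICI 3 or KD RI 2, with adjusted p up to 0.171 in the others. Hmgcs1 (HMG-CoA synthase), the kinases Mvk and Pmvk and the isomerase Idi1 had group means from 29.0 CPM (Mvk in WT ICI) to 113 CPM and were not called. Fdps, farnesyl diphosphate synthase, had 2.99, 6.88 and 5.30 CPM in KD ICI, against 10.0, 7.58 and 9.59 CPM in WT ICI, with the groups apart at an adjusted p of 0.0923. Transcripts of 6 other genes in GENCODE M21 are at least 90% identical to it over 200 bases or more, so its counts are uncertain.

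None of the 6 fatty acid enzymes and none of the 3 supply enzymes was called between genotypes in the fit to all libraries. Scd1, a stearoyl-CoA desaturase with lower levels here than Scd2, had 176, 102 and 151 CPM in KD RI, against 217, 199 and 242 CPM in WT RI. All 3 KD RI libraries were below all WT RI libraries, with a log2 fold change of -0.62 ± 0.23 (adjusted p = 0.0722) that passed without KD ICI 1 (0.0263) or KD RI 1 (0.0469). Under ICI Scd1 had 105, 185 and 177 CPM in KD, against 183, 142 and 190 CPM in WT, and the groups overlapped. Fatty acid synthase (Fasn) averaged 441 ± 168 CPM in KD ICI and 527 ± 6.62 CPM in WT ICI, and 543 ± 73.7 CPM in KD RI and 609 ± 128 CPM in WT RI (SD, n = 3 each). Its SD in KD ICI was the widest of the 4 groups. Acetyl-CoA carboxylase alpha (Acaca), its mitochondrial form Acacb, the elongase Elovl6, the desaturase Scd2, and the suppliers Acly (ATP citrate lyase), Acss2 (acetyl-CoA synthetase) and Me1 (malic enzyme) also overlapped between genotypes under ICI; under RI Me1 alone of these was apart, with 51.5, 55.4 and 53.4 CPM in KD RI, against 51.1, 36.2 and 44.8 CPM in WT RI. Part of Acaca is 99.2% identical to the pseudogene Gm5182, which had 2708 counts.

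Stard4, which moves cholesterol between membranes, had 41.5, 56.9 and 48.8 CPM in KD ICI, against 65.9, 61.4 and 70.6 CPM in WT ICI. In KD RI it had 58.8, 38.8 and 59.5 CPM, against 77.5, 60.6 and 54.4 CPM in WT RI. It was lower on average (log2 -0.36 ± 0.13, adjusted p = 0.0371), a call kept in 13 of 21 alternatives and lost without any 1 of the KD libraries ICI 1, ICI 3 and RI 2 or the WT libraries ICI 1, ICI 3 and RI 1 (adjusted p up to 0.0908). Counting groups that did not overlap, 5 of the 30 genes were above and 3 below WT ICI in KD ICI, where 20.0% and 21.7% of all genes were; under RI 3 were above and 3 below, against 22.5% and 22.7%.

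**Figure D3:**
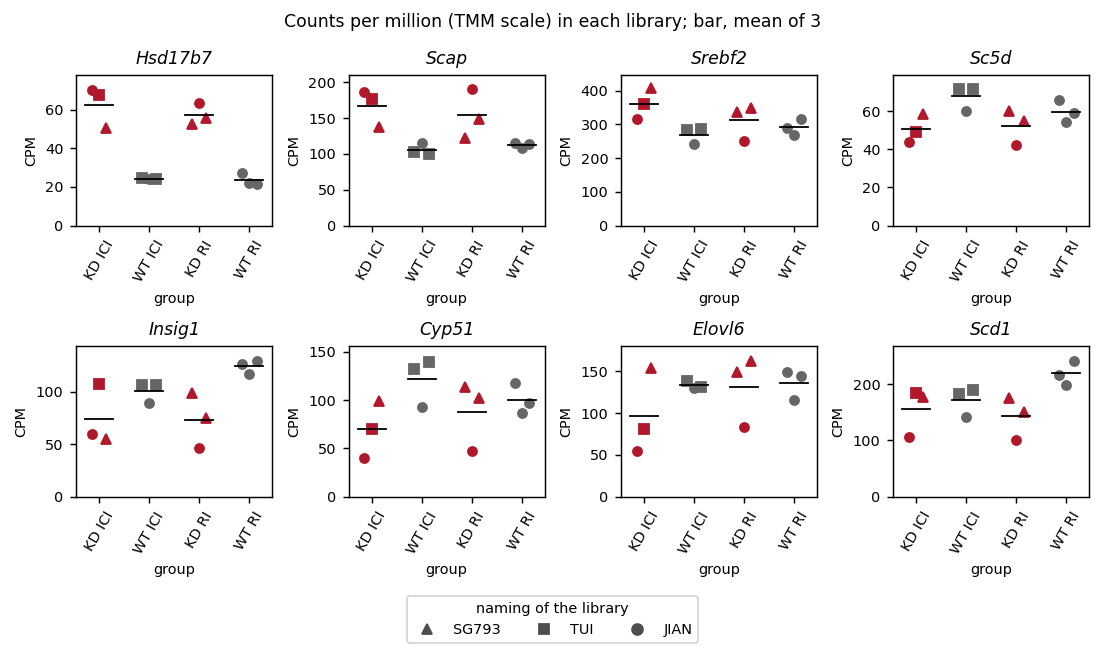
CPM of 8 of the genes in each library, with KD in red and WT in grey, a bar at the mean of 3 libraries and the marker shape for the naming (triangle SG793, square TUI, circle JIAN). Hsd17b7 and Scap separate KD from WT, while Cyp51 and Elovl6 are lowest in the KD libraries named JIAN and reach WT levels in those named SG793.

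Within KD, the level of most synthesis genes followed the naming of the library. KD ICI 1, named JIAN, was below all 3 WT ICI libraries in 21 of the 30 genes and above them in 6, where 43.2% of all genes were below and 40.7% above. KD RI 2, also JIAN, was below all WT RI libraries in 23 and above in 3 (36.8% and 38.3% of all genes). The 3 libraries named SG793 did the reverse: KD ICI 3 was below in 6 and above in 18 (39.9% and 37.6% of all genes), KD RI 1 below in 4 and above in 16 (34.8% and 36.5%), and KD RI 3 below in 6 and above in 14 (35% and 37.4%). KD ICI 2, named TUI, was between these with 12 below and 11 above (40.8% and 39.5%). The mean log2 CPM of the 30 genes was 5.67 in KD ICI 1 and 5.72 in KD RI 2, against 6.18, 6.28 and 6.19 in KD ICI 3, KD RI 1 and KD RI 3, and 5.94 to 6.15 in the 6 WT libraries.

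A fit with the naming as a further term, added after these values were seen, gave the difference between SG793 and JIAN libraries within groups. Since SG793 occurs only in KD, WT libraries enter that difference only through the TUI term and the shared spread. Of the 30 genes 19 were higher in SG793 libraries and 1, Scap, was lower, where 5.35% of all genes were higher and 5.89% lower. The median log2 difference was 0.53 for the 30 genes and -0.02 for all genes. Because the pattern was noticed first and then fitted on the same libraries, these figures describe it and give no independent support. Between TUI and JIAN edgeR called 0 of the 16617 genes, with 944 at an unadjusted p under 0.05, of which 14 were among the 30, and 26 of the 30 had a positive TUI difference.

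The difference reached all the enzyme groups. Idi1, which isomerises isopentenyl diphosphate, had 55.8 CPM in the SG793 library of KD ICI, against 15.0 CPM in the JIAN library, and 45.9 and 50.1 CPM in those of KD RI, against 20.6 CPM, with a log2 difference of 1.45 ± 0.16 (adjusted p = 0.00114). Cyp51 differed by 1.20 ± 0.12 (adjusted p = 0.000867), and Sqle by 0.83 ± 0.09 (adjusted p = 0.00114). Elovl6, which lengthens palmitate, had 154, 149 and 162 CPM in the SG793 libraries KD ICI 3, KD RI 1 and KD RI 3, against 54.2 and 82.9 CPM in the JIAN libraries KD ICI 1 and KD RI 2, a difference of 1.11 ± 0.14 (adjusted p = 0.00400). Scap ran the other way by -0.48 ± 0.09 (adjusted p = 0.0152), with 138, 122 and 149 CPM in the SG793 libraries, against 186 and 191 CPM in the JIAN libraries. Hsd17b7, at -0.34 ± 0.11 (adjusted p = 0.0713), and Srebf1, Ebp, Mvd, Fdft1, Insig1, Acss2, Me1, Acacb and Stard4 were not called. The number called higher dropped to 4 without KD ICI 3 and 8 without KD ICI 1, and was 14 to 19 without each other library.

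**Figure D4:**
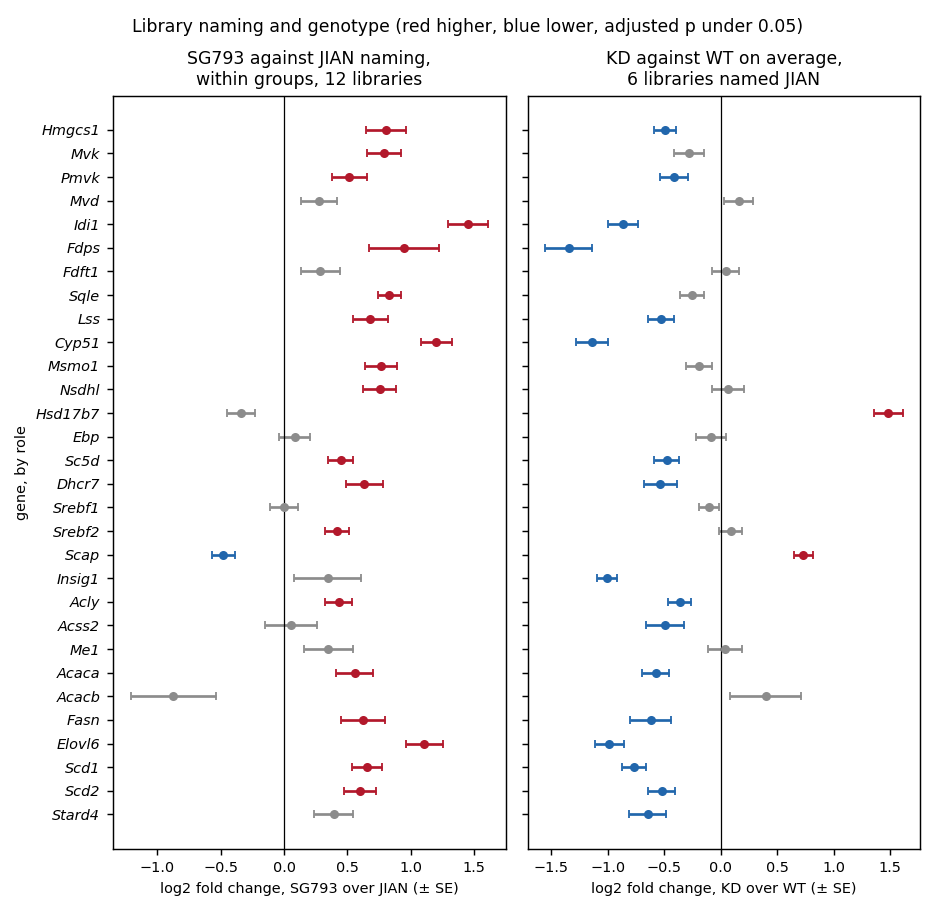
Left, log2 difference of SG793 over JIAN libraries within groups, from the fit to 12 libraries with naming as a term; right, log2 fold change of KD over WT on average in the 6 libraries named JIAN. Points are the 30 genes with their SE, red called higher and blue lower: 19 are red and 1 blue on the left, and 2 are red and 17 blue on the right.

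The genotype comparison depended on which KD libraries entered. In the 6 libraries named JIAN (1 each of KD ICI, WT ICI and KD RI, and 3 of WT RI), KD was lower than WT on average in 17 of the 30 genes and higher in 2, Hsd17b7 and Scap, where 19.7% and 19.0% of all genes were called. The spread in that fit comes from the WT RI libraries alone, and the lone libraries are assumed to vary like them. Cyp51 was lower by -1.14 ± 0.14 (adjusted p = 0.000825), Insig1 by -1.01 ± 0.09 (0.000120), Elovl6 by -0.98 ± 0.13 (0.000781), Idi1 by -0.87 ± 0.13 (0.00145) and Scd1 by -0.77 ± 0.11 (0.000975). Hsd17b7 was higher by 1.48 ± 0.13 (8.39e-05) and Scap by 0.73 ± 0.08 (0.000384). With naming as a term in all 12 libraries 18 were lower and 3 higher on average, where 23.7% and 23.9% of all genes were. Leaving out the SG793 libraries gave 14 lower and 2 higher (23.3% and 22.8% of all genes), in a fit where KD RI is 1 library, assumed to vary like the others, and both KD ICI libraries carry the start H80. Leaving out the KD libraries named JIAN gave 0 lower and 8 higher (16.8% and 15.2%), the 8 being Mvk, Mvd, Fdft1, Sqle, Nsdhl, Hsd17b7, Srebf2 and Scap. Hsd17b7 and Scap were thus higher in KD on average in every one of these 4 selections, and the selection without the KD libraries named JIAN had no lower call. Naming and genotype cannot be fully told apart, since no WT library is named SG793.

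Some marker sums also differed with the naming in KD, a difference that was not tested. Those of proliferation genes were lower, and those of neutrophil, adipocyte and endothelial markers higher, in each JIAN library than in the SG793 libraries of its treatment. The summed level of 8 proliferation genes (Mki67, Top2a and others) was 960, 1255 and 2292 CPM in KD ICI 1, 2 and 3, and 1859, 1718 and 2231 CPM in KD RI 1, 2 and 3, against 1952 to 2125 CPM in the WT libraries; 1 of the 8 was called lower in KD under ICI and none at 0 in any KD library. The summed level of 7 neutrophil markers was 885, 551 and 252 CPM in KD ICI 1, 2 and 3 and 224, 438 and 210 CPM in KD RI 1, 2 and 3, against 52.5 to 195 CPM in WT, with 7 of 7 called higher under ICI and 1 of 7 under RI. The 9 adipocyte markers summed to 341, 202 and 43.3 CPM in KD ICI and 38.3, 194 and 69.6 CPM in KD RI, against 16.3 to 295 CPM in WT, with 1 of the 7 tested called higher under ICI and none under RI. Most of that sum in the JIAN libraries was Fabp4, with 327 CPM in KD ICI 1 and 171 CPM in KD RI 2, while the fat cell hormone Adipoq averaged 0.453 CPM in KD ICI and 0.950 CPM in KD RI. The 5 endothelial markers summed to 165, 89.9 and 106 CPM in KD ICI 1, 2 and 3. They summed to 84.9, 125 and 96.4 CPM in KD RI 1, 2 and 3, against 66.7 to 94.0 CPM in WT. Of these 5, 1 was called higher and 0 lower in KD under each treatment. The 5 erythroid markers, mainly Hbb-bs, were higher in the JIAN library under ICI but not under RI, and summed to 1919, 683 and 161 CPM in KD ICI and 130, 63.0 and 47.5 CPM in KD RI, against 34.9 to 652 CPM in WT. The 8 sebocyte and keratinocyte markers summed to at most 1.44 CPM in KD and 8.97 CPM in WT, and none passed the filter on low counts. The 8 skeletal muscle markers summed to 1143 CPM in WT ICI 2 and 911 CPM in WT RI 3. In the other libraries they summed to 2.02 to 96.4 CPM. None of the 7 tested was called in KD against WT under either treatment. Between the genotypes, 8 T cell markers summed to 2.04 to 4.06 CPM in KD ICI and 23.5 to 32.6 CPM in WT ICI, and to 1.16 to 3.48 CPM in KD RI and 25.99 to 41.7 CPM in WT RI, with 8 of 8 called lower in KD under each treatment and Cd3e at 0 in KD ICI 1 and KD RI 1. As a yardstick for the marker calls given here, upward calls in KD made up 16.1% of the 16617 tested genes under ICI and 9.18% under RI. Downward calls made up 14.9% and 12.1%. Of 8 macrophage markers 7 were called lower in KD under each treatment, and of 6 fibroblast markers 1 was called higher under ICI and 3 under RI. The part of these cells and of proliferation in the levels of the synthesis genes was not tested.

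Radiation added to the inhibitor changed none of these genes past the threshold. RI against ICI called 0 of 30 in WT, 0 of 30 in KD and 0 of 30 in the difference of the 2 effects. This held with edgeR as with DESeq2. By edgeR 0 of 30 had an unadjusted p under 0.05 in any of the 3, against 1844, 2455 and 2238 of all 16617 genes. Few genes at all were called there by edgeR, 0.283% in WT, 0.0843% in KD and 0.367% for the difference. DESeq2 called 1.16% of all genes higher and 1.07% lower in WT, 0.433% and 2.29% in KD, and 0.656% and 2.59% for the difference. Scd1 had 217, 199 and 242 CPM in WT RI, against 183, 142 and 190 CPM in WT ICI, and with Insig1 and Srebf1 it was 1 of 3 genes whose WT RI libraries all lay above WT ICI, where 13.0% of all genes did. For Scd1 the log2 difference was 0.35 ± 0.23 (adjusted p = 0.624). In KD no gene of the 30 had groups apart, where 5.59% of all genes were above and 7.49% below.

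Leaving out KD ICI 3, the library that carries CON, changed the KD result. Without it 5 genes were higher in KD RI than in KD ICI, where 8.91% of all genes were, and 0 were lower, where 10.5% were. They were Elovl6 (log2 0.96 ± 0.28, adjusted p = 0.0419), Me1 (0.66 ± 0.13, 0.00525), Fasn (0.64 ± 0.17, 0.0210), Mvk (0.61 ± 0.20, 0.0493) and Acaca (0.56 ± 0.15, 0.0228). That fit sets 2 SG793 libraries and 1 JIAN library of KD RI against a JIAN and a TUI library of KD ICI, so treatment and naming cannot be told apart in it. With naming as a term no gene of the 30 was called between RI and ICI in KD, where 0 of all genes were higher and 0.457% lower, or in WT, where 0.0361% were called in each direction. Scd1 alone was called in the difference of the 2 effects (log2 -0.89 ± 0.16, adjusted p = 0.0368), which called 0.0662% of all genes higher and 0.445% lower.

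KD RT was deposited only as FPKM, in a table of its own with 34745 rows, so it was described by level and by rank within a library and not tested. Of the 30 genes 14 ranked higher in all RT libraries than in all 6 other KD libraries, 1 ranked lower and 15 overlapped, where 25.0% of 8772 genes at 1 FPKM or more in all 15 libraries ranked higher and 27.5% lower. Fdps, Acss2 and Acacb are not among those 8772; of the 27 genes that are, 12 ranked higher and 1 lower. The ratio of mean FPKM, RT over the other KD libraries, had a median of 1.75 for the 30 genes, 1.72 for those 27 and 1.17 for the 8772. The gene that ranked lower was Hsd17b7, with 6.66, 7.36 and 6.82 FPKM in RT 1, 4 and 5, against 10.8, 11.6 and 8.72 FPKM in KD ICI and 9.52, 11.2 and 9.91 FPKM in KD RI, and 3.97 to 5.17 FPKM in WT. RT thus lay between the other KD libraries and WT for it, at percentiles of 83.0 to 83.6 within a library, against 87.1 to 90.3 in the other KD libraries and 78.3 to 80.7 in WT.

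The 14 genes that ranked higher came from every role: Hmgcs1, Mvd and Fdps, then Fdft1, Ebp, Sc5d and Dhcr7, the regulators Scap and Insig1, the suppliers Acly and Acss2, the desaturases Scd1 and Scd2, and Stard4. Scd1 had 78.2, 94.5 and 93.6 FPKM in RT, against 18.6 to 36.4 FPKM in the other KD libraries and 31.3 to 50.9 FPKM in WT. Hmgcs1 had 38.9, 51.9 and 38.9 FPKM in RT, against 8.86 to 21.8 FPKM in the other KD libraries and 14.6 to 19.7 FPKM in WT. Insig1 had 52.2, 49.4 and 56.5 FPKM in RT, against 12.9 to 29.2 FPKM in the other KD libraries and 27.6 to 38.4 FPKM in WT. Further enzymes of the same routes overlapped the other KD libraries in rank, among them Mvk, Pmvk, Idi1, Sqle, Lss, Cyp51, Msmo1, Nsdhl and Fasn. Of these, Pmvk, Cyp51 and Fasn had more FPKM in every RT library than in every other KD library. Elovl6 overlapped in rank and in FPKM, with 5.33, 11.2 and 5.39 FPKM in RT, against 4.18 to 14.4 FPKM in the other KD libraries.

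Fdps stood furthest apart in RT. It had 29.5, 36.2 and 22.9 FPKM in RT, against 0.447 to 1.91 FPKM in all 12 other libraries. The ratio of its mean FPKM in RT to that in the other KD libraries was 28.3. Of the 8772 genes, 12 matched or passed this ratio. Fdps itself falls below the 1 FPKM minimum of those genes, so that count does not show how rare its ratio is. It has near-identical copies, and the part of read assignment among them in its level was not tested. Because RT stands in a table of its own, table and treatment cannot be told apart for any of these genes. On this per-length scale the highest mean levels were those of Scd2, at 95.1, 91.6, 125 and 116 FPKM in KD ICI, KD RI, WT ICI and WT RI. The lowest were those of Acacb, at 0.749, 0.822, 0.613 and 0.774 FPKM in the same order. Acss2 and Fdps came next, Fdps first in KD ICI and Acss2 first in the other groups.

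**Figure D5:**
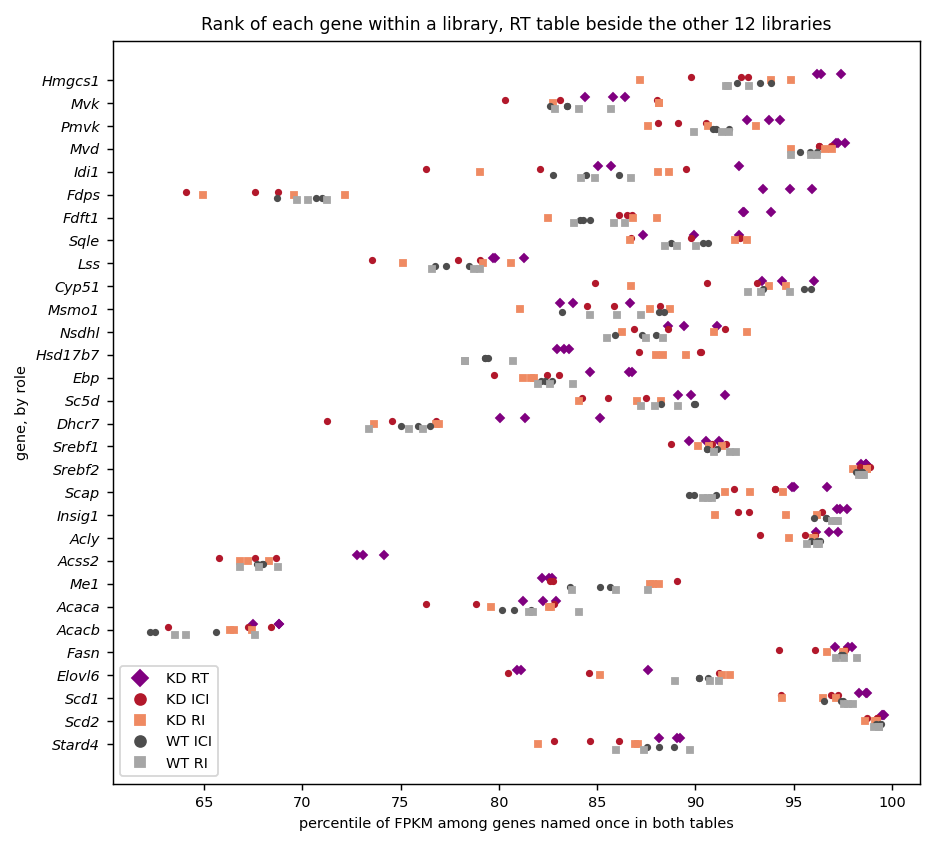
Rank of each of the 30 genes within a library, as the percentile of its FPKM among the gene names listed once in both tables, for the 3 RT libraries (purple) and the 12 others. RT lies right of the other KD libraries for 14 genes, furthest for Fdps, and left of them for Hsd17b7.

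Genes next to these in the pathways are given beside the same shares of all genes, 16.1% higher and 14.9% lower under ICI and 9.18% and 12.1% under RI. Of 8 tested genes of 9 in a list of other sterol synthesis genes, under ICI 0 were higher and 1 lower, and under RI 1 and 1. Tm7sf2, a sterol reductase, was lower in both, with 6.73 CPM in KD ICI and 14.6 CPM in WT ICI on average (log2 -1.11 ± 0.26, adjusted p = 0.00731), and 5.38 CPM in KD RI and 13.0 CPM in WT RI (-1.27 ± 0.26, 0.00440). Cyb5r3, a reductase that passes electrons to sterol and fatty acid desaturases, was higher under RI (0.54 ± 0.16, 0.0342). Of 12 genes of SREBP control and sterol uptake, 1 was higher and 0 lower under ICI and 1 and 1 under RI. Mbtps2, the Golgi protease that makes the second cut of SREBP, was higher under ICI (0.59 ± 0.14, 0.00753) and RI (0.50 ± 0.14, 0.0221), and Npc2, which hands cholesterol out of lysosomes, was lower under RI (-0.66 ± 0.19, 0.0260). Of 19 tested genes of 20 for other fatty acid and glycerolipid steps, 3 were higher and 2 lower under ICI and 1 and 3 under RI. Mlxipl, the carbohydrate-responsive factor ChREBP, had 4.46 CPM in KD ICI and 12.3 CPM in WT ICI on average (-1.46 ± 0.22, 0.000651), and 5.78 CPM in KD RI and 21.9 CPM in WT RI (-1.92 ± 0.22, 8.14e-05). The citrate carrier Slc25a1 was lower in both (-0.44 ± 0.12 under ICI, 0.0124; -0.72 ± 0.12 under RI, 0.000800), the elongase Elovl7 was higher in both (1.34 ± 0.26, 0.00284; 1.00 ± 0.26, 0.0166), and Acsl4, an acyl-CoA synthetase, was higher under ICI (0.60 ± 0.13, 0.00424).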

How the data were processed

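Per the file headers, the authors deposited counts and FPKM per gene for 12 libraries (ICI and RI) and only FPKM for the 3 RT libraries. HISAT2 and the builds GRCm38 and mm10 appear in the submitters' processing notes, with no version. The sources used here do not name the counter, the annotation or the strand setting. Positions are those of the deposited table, and 27 of the 30 genes have the position of GENCODE M21.

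Genes with low counts were removed (filterByExpr by group, minimum count 10, minimum total count 15), and the rest were scaled by TMM and fitted with edgeR 4.0.16 (robust quasi-likelihood, 1 mean per group, 12 libraries) in R 4.3.3. The 6 contrasts set KD against WT within each treatment and over both, and RI against ICI within each genotype and between genotypes, 2-sided, with Benjamini-Hochberg adjustment over all 16617 genes. The SE is the log2 fold change divided by the square root of F. The common biological coefficient of variation was 0.209. Alternatives used DESeq2 1.42.0, other scaling and filters, a replicate block, subsets of libraries by naming, and each library left out; the naming term and the fits without KD libraries named JIAN were added after seeing the data. The script was tested on simulated data. FPKM served only for RT, with ranks among 32807 names listed once in both tables. Near-identical transcripts were found with BLAST 2.17.0 (90% identity over 200 bases).

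The genes and lists were chosen with earlier results of these data known. All 30 genes are accounted for; those called in a comparison are given library by library, others by group means. Of each other list, at most 2 genes higher and 2 lower of smallest p in a genotype comparison are named. The other genes given library by library, and those in the fits by naming, were chosen after their values were seen. Libraries of a group differed by more than sampling noise (chi-square per degree of freedom of 5.33 or more), so none was counted as a duplicate. The value was highest for KD ICI 3, at 106 against KD ICI 1 and 84.6 against KD ICI 2. It was at most 29.2 for all other pairs. Such differences cannot show that libraries came from separate animals, as for the KD ICI libraries that share the start H80. Counting error is small beside this spread.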

Additional observations from a re-analysis of the deposited data

How the results depend on the processing

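The counts of synthesis genes called between genotypes moved with the libraries used. For KD against WT under ICI, the 3 higher became 5 without the SG793 libraries, and the 1 lower became 0 with DESeq2's size factors in edgeR, with only the 2 groups compared, with both H80 libraries summed or without the KD libraries named JIAN, 2 with DESeq2's test, 8 without the SG793 libraries or in JIAN libraries only, and 9 with naming as a term. Under RI, the 1 higher became 2 with DESeq2's test, the 2 groups alone, without the SG793 libraries, in JIAN libraries only or with naming as a term, and 4 without the KD libraries named JIAN. The 0 lower became 1 with the 2 groups alone, 2 with DESeq2's test or the H80 libraries summed, 9 without the SG793 libraries, 10 in JIAN libraries only and 15 with naming as a term. On average, the 4 higher became 2 with no filter on low counts, without the SG793 libraries or in JIAN libraries only, and 8 without the KD libraries named JIAN; the 3 lower became 14 without the SG793 libraries, 17 in JIAN libraries only, 18 with naming as a term and 0 without the KD libraries named JIAN. The 0 lower for the difference of RI effects became 1 with naming as a term. Between SG793 and JIAN, the 1 lower became 2 with no filter or with DESeq2's test, and the 19 higher stayed between 19 and 21 under these and DESeq2's size factors. The share of all genes called lower also moved: from 14.9% under ICI to 22.2% without the SG793 libraries, 14.1% in JIAN libraries only, 20.9% with naming as a term and 10.3% without the KD libraries named JIAN, and from 12.1% under RI to 10.2%, 10.1%, 15% and 10.4%. Without the SG793 libraries or in JIAN libraries only KD RI is 1 library. Shares called higher moved as well, from 16.1% under ICI to 20.9% with naming as a term and 11% without the KD libraries named JIAN. Under RI they moved from 9.18% to 14.3% and 6.77%. The cause of these shifts was not tested.

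Leaving out each library in turn gave 2 to 5 higher and 0 to 4 lower under ICI. Under RI it gave 1 to 2 higher and 0 to 2 lower, and on average 2 to 6 and 0 to 5. Of all genes, these fits called 9.74% to 22.8% higher and 10.2% to 22.9% lower under ICI. Under RI they called 5.35% to 14% and 8.33% to 15.9%, and on average 15.3% to 25.2% and 17.8% to 25.4%. For RI against ICI in WT and for the difference of effects, leaving out 1 library gave 0 higher and 0 lower. For RI against ICI in KD it gave 0 to 5 higher and 0 lower, and for SG793 against JIAN 4 to 19 higher and 0 to 3 lower. Shares of all genes in the RI comparisons were largest without KD ICI 3, at 1.01% higher and 1.03% lower in WT. In KD they were 8.91% and 10.5%, and for the difference 4.91% and 6.19%.

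Replicate numbers did not pair the libraries: libraries of the same number correlated at a mean r of 0.00638 (-0.344 to 0.301), and 3 of 12 correlated best with their own number. With the number as a replicate block, 3 were higher and 1 lower under ICI, where 15.2% and 14.7% of all genes were. Under RI 1 and 0 were (8.77% and 11.5%), and on average 5 and 2 (19.3% and 20.3%). In the RI comparisons 0 were called, where at most 0.108% of all genes were in either direction.

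The precision of these values is limited by 3 libraries a group and by KD groups that mix namings. RT rests on FPKM from a separate table and has no test.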

Other observations

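Genes of cholesterol efflux were called in both directions between the genotypes. Of 10 genes of cholesterol efflux and LXR response, 2 were higher and 4 lower in KD under ICI (edgeR quasi-likelihood test, adjusted p under 0.05). Of all genes 16.1% were higher and 14.9% lower there. Under RI 2 were higher and 5 lower (9.18% and 12.1% of all genes), and on average 3 and 5 (20.2% and 20.5%). The exporter Abcg1 had 5.77 CPM in KD ICI and 19.1 CPM in WT ICI on average, and 3.72 CPM in KD RI and 23.6 CPM in WT RI, with a log2 fold change on average of -2.19 ± 0.17 (adjusted p = 1.57e-06). Nr1h3, the receptor LXR alpha, had 4.15 CPM in KD ICI and 12.8 CPM in WT ICI, and 5.60 CPM in KD RI and 13.7 CPM in WT RI (-1.45 ± 0.16, 2.21e-05). Soat1, which esterifies cholesterol for storage, was higher, with 191 CPM in KD ICI and 92.8 CPM in WT ICI, and 172 CPM in KD RI and 107 CPM in WT RI (0.86 ± 0.10, 4.11e-05). Cyp27a1, a sterol hydroxylase, was also higher on average (0.50 ± 0.13, 0.00885). In the same libraries 7 of 8 macrophage markers were called lower in KD under ICI and 7 under RI, with summed levels of 335 to 510 CPM in KD ICI, 910 to 1047 CPM in WT ICI, 248 to 324 CPM in KD RI and 674 to 784 CPM in WT RI. The part of macrophages in these values was not tested. Apoe was the only gene of this list called between treatments in WT, lower in WT RI than in WT ICI, with 235 and 482 CPM (log2 -1.04 ± 0.15, adjusted p = 0.0200), and was picked after its value was seen.

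Of 13 tested genes of 15 for fatty acid oxidation, 1 was higher and 4 lower in KD under ICI (16.1% and 14.9% of all genes), 2 and 1 under RI (9.18% and 12.1%), and 3 and 3 on average (20.2% and 20.5%). Hadhb, a subunit of the mitochondrial trifunctional protein, was lower on average (log2 -0.51 ± 0.06, adjusted p = 6.22e-05), as was its partner Hadha (-0.38 ± 0.08, 0.00314). Acads, the short-chain acyl-CoA dehydrogenase, had 71.0 CPM in KD ICI and 44.6 CPM in WT ICI, and 74.2 CPM in KD RI and 38.6 CPM in WT RI (0.80 ± 0.13, 0.000309). Decr1, a reductase for unsaturated acyl-CoA, was higher on average (0.31 ± 0.08, 0.0117).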
